A study of Mus musculus with 6 samples.

Results

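The genes described here encode the IL-12 cytokine family and IL-15, cytokines through which macrophages direct lymphocytes. They were chosen by name: Il12a, Il12b, Il23a, Il27 and Ebi3 (cytokine chains), Il15, and the receptor chains Il15ra and Il12rb1. All 8 were found among the 25044 genes of the count table. With trametinib, Il15, Il15ra and Il12rb1 were higher and Il12a and Ebi3 were lower. Il12b and Il27 did not pass the main, unpaired test, and Il23a had almost no reads. Il27 passed when libraries were paired by replicate number.

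Cytokines of the IL-12 family are pairs of chains. IL-12 joins the chains of Il12a and Il12b and drives type 1 helper T cells and interferon gamma, IL-23 joins Il23a with the same Il12b chain and sustains type 17 helper T cells, IL-27 joins Il27 with Ebi3, and IL-35 joins Il12a with Ebi3. Il12rb1 encodes the receptor chain shared by IL-12 and IL-23. IL-15 supports natural killer cells and memory CD8 T cells, and is carried to them on the surface of macrophages and dendritic cells by the receptor chain encoded by Il15ra.

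The cells were peritoneal macrophages of C57BL/6 mice, wild type and 8 weeks old, taken 3 days after thioglycollate, an irritant that recruits monocyte-derived macrophages. After 1 h of adherence and a wash, culture went on for 24 h. In 3 cultures they then received 100 nM trametinib, which inhibits the kinases MEK1 and MEK2 upstream of ERK, and in 3 they received DMSO vehicle. All 6 cultures were given LPS, a bacterial ligand of TLR4, at 100 ng/ml after 2 h and for 12 h. There was no culture without LPS, so no value below shows what LPS induced. The labels name 3 mice and do not say which mouse each library came from, so a p-value here reflects the spread among these libraries, which may be technical.

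Library totals ran from 17453778 to 19648467 counts. Of 10 genes of ERK output 9 fell with trametinib, where 18.4% of all genes tested fell. The other 1 did not pass, and the median log2 fold change was −4.21. Vehicle replicate 3 was the lowest vehicle library in every gene of this list. Egr1, for example, had 9.14, 9.93 and 3.62 CPM (counts scaled to the library size) in vehicle replicates 1, 2 and 3. Among the vehicle libraries replicate 3 was also the highest for Il12a and Il12b, away from trametinib. It lay nearest the trametinib mean in 2 of the 7 members tested, Il15 and Il12rb1. Along principal component 1 (68.8% of the variance) vehicle replicate 3 lay at −16.2, against 26.4 to 35.5 for the trametinib libraries and −39.3 and −38.1 for the other vehicle libraries. Macrophage markers summed to 14767 to 16402 CPM in trametinib libraries and 15783 to 17563 CPM in vehicle libraries, most of it Lyz2. Of these 8 markers 2 were higher with trametinib (Mertk and Cd14), 2 were lower (Adgre1 and Itgam) and 4 did not pass. Adgre1, which encodes the macrophage surface protein F4/80, had 904, 860.4 and 982 CPM in the trametinib libraries, against 1817, 1866 and 1477 CPM in the vehicle libraries (adjusted p 0.000502 by edgeR). The part of these markers' changes in the results for the members was not tested.

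Upstream sequence was at hand from RefSeq (build GRCm38.p6) for 4 of the 8 genes, Il12a, Il12b, Ebi3 and Il15ra. No entry was used for Il23a, Il27, Il15 or Il12rb1. The 250 bases before the first listed start are printed for the 2 cytokine genes that fell, for Il12b, whose product pairs with that of Il12a, and for Il15ra, which rose. All lie on the plus strand, at chr3:68690394-68690643 for Il12a, chr11:44399813-44400062 for Il12b, chr17:55952373-55952622 for Ebi3 and chr2:11705043-11705292 for Il15ra. Capitals mark matches on either strand to GAGGAA, the core bound by PU.1 and other ETS factors, or CCGGAA, an ETS core.
Il12a: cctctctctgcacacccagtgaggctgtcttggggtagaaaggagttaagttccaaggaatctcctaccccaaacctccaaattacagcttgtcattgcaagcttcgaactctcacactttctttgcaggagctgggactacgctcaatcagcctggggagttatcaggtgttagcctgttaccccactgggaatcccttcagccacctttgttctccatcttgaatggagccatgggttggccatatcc
Ebi3: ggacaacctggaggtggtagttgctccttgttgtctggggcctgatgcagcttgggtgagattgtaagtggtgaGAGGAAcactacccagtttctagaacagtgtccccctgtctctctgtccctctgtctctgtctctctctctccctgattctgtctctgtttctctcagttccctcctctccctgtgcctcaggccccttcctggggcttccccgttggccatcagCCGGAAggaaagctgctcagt
Il12b: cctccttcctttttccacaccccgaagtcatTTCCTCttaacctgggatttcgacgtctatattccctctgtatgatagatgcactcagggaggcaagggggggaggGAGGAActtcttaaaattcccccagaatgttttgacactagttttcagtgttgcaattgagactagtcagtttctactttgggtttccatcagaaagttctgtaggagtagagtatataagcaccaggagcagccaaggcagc
Il15ra: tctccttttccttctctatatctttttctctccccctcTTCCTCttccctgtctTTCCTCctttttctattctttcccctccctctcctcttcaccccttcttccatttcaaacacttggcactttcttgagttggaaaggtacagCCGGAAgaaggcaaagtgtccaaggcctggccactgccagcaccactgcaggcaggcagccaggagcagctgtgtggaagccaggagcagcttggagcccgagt

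Windows from 250 bases before to 50 bases after the start were searched on both strands for 6 motifs. GAGGAA occurred 2 times at Il12b, 2 times at Il15ra and 1 time at Ebi3, and 28.3% of 32851 windows in the table hold it. CCGGAA occurred 1 time each at Ebi3 and Il15ra, against 14.9% of all windows. An interferon-response type motif (3.44% of windows), an NF-kappaB type motif (1.47%) and the STAT type TTCNNNGAA (8.30%) had no match in these windows or in the second windows of Il12a and Il15ra. The AP-1 type TGANTCA (7.81% of windows) matched 1 time, in the second window of Il15ra. Il12a held none of the 6 in either window. GAGGAA and CCGGAA share their last 4 letters, and a match describes only the letters of the window.

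Trametinib was compared with vehicle for every gene by edgeR's quasi-likelihood test, with p-values adjusted by Benjamini-Hochberg over the 11286 genes that passed a filter on low counts. The threshold was an adjusted p of 0.05. Levels below are CPM on library sizes scaled by TMM factors, and log2 fold changes are trametinib over vehicle with their standard error (SE). Il23a did not pass the filter and 7 members were tested. Of these, 3 rose, where 15.8% of all genes tested rose, and 2 fell, where 18.4% of all genes fell. The groups did not overlap in 3 members that were higher and 3 that were lower with trametinib, against 23.4% and 25.9% of all genes. The median log2 fold change of the 7 was −0.21, beside −0.01 over all genes tested.

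**Figure D1:**
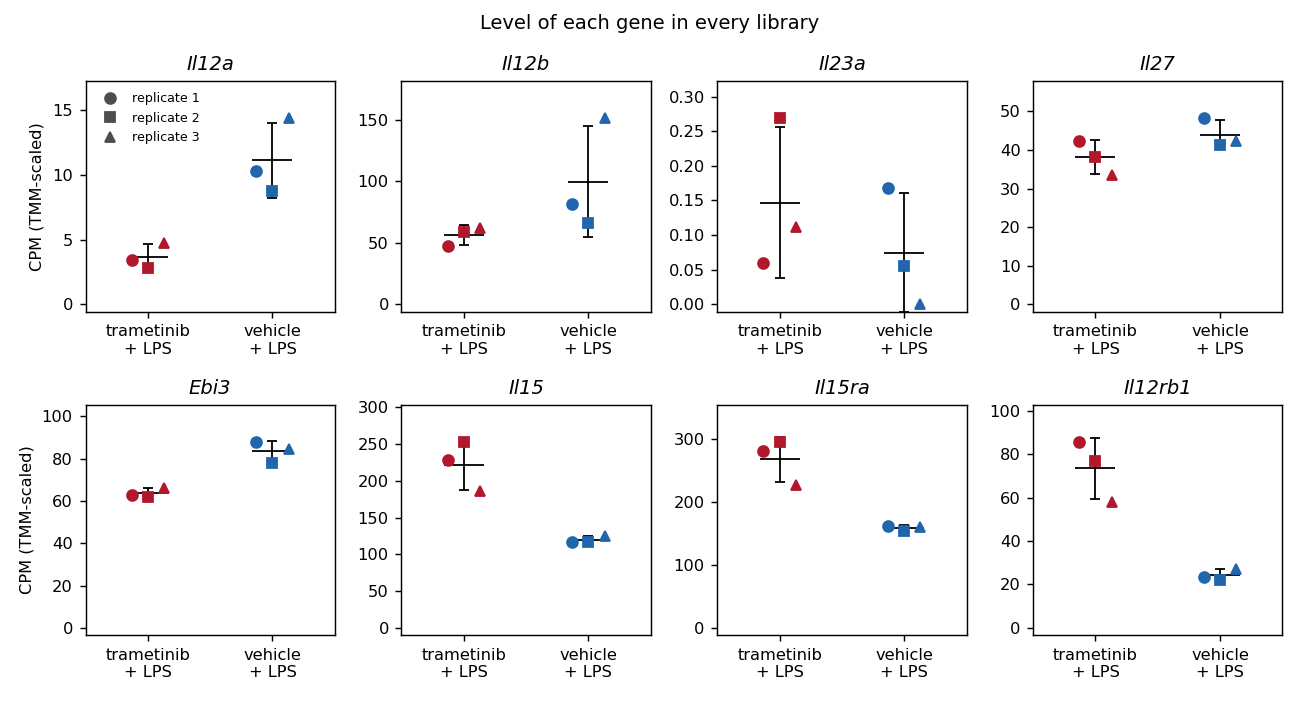
Level in CPM (vertical axis, linear from 0) of each gene in the 3 trametinib + LPS libraries and the 3 vehicle + LPS libraries. Points are libraries, with shapes for replicates, and bars show the mean and SD. Il15, Il15ra and Il12rb1 are higher in every trametinib library, Il12a, Il12b and Ebi3 lower in every one, and Il23a is below 0.3 CPM throughout.

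Il12a encodes the chain found in IL-12 and IL-35 (ENSMUSG00000027776, mm10 chromosome 3, 68690644 to 68698547). It stood at 3.43, 2.79 and 4.73 CPM in trametinib replicates 1, 2 and 3, from 58, 52 and 85 counts, against 10.3, 8.76 and 14.4 CPM in vehicle replicates 1, 2 and 3, from 183, 157 and 266 counts. Every trametinib library lay below every vehicle library. Il12a fell to 0.328 of the vehicle level, a log2 fold change of −1.61 (SE 0.24, 95% interval −2.17 to −1.04, adjusted p 0.00219 by edgeR). Vehicle replicate 3 was the highest of the vehicle libraries, and leaving it out gave −1.38 (adjusted p 0.000404).

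Il12b encodes the chain shared by IL-12 and IL-23 (ENSMUSG00000004296, chromosome 11, 44400063 to 44414033). It had 47.2, 59.0 and 62.5 CPM in the trametinib libraries, against 81.7, 66.6 and 151 CPM in the vehicle libraries. The groups did not overlap, but vehicle replicate 3 was far above the other vehicle libraries, and the vehicle values varied by 45.3% of their mean, against 14.2% with trametinib. The difference did not pass, with a log2 fold change of −0.83 (SE 0.34, 95% interval −1.69 to 0.04, adjusted p 0.123 by edgeR). Without vehicle replicate 3 the change was smaller and its spread smaller still: the log2 fold change was −0.40 (SE 0.13) and the adjusted p 0.0489, and the alternatives ran from 0.0489 to 0.262.

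Il23a encodes the chain particular to IL-23 (ENSMUSG00000025383, chromosome 10, 128296139 to 128298752). It had 1, 5 and 2 counts in the trametinib libraries and 3, 1 and 0 counts in the vehicle libraries. The summed 8 and 4 counts give a ratio of 2.03 with an exact 95% interval of 0.544 to 9.21, which covers counting error only. No difference was detectable at this depth.

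Il27 encodes the chain particular to IL-27 (ENSMUSG00000044701, chromosome 7, 126589010 to 126594941). It had 42.4, 38.2 and 33.6 CPM in the trametinib libraries, against 48.2, 41.2 and 42.3 CPM in the vehicle libraries. The groups overlapped, since trametinib replicate 1 lay above vehicle replicates 2 and 3. Il27 did not pass (log2 fold change −0.21, SE 0.10, 95% interval −0.44 to 0.03, adjusted p 0.151 by edgeR). With the replicate number as a block each trametinib library was set against the vehicle library of its own number, and Il27 passed at an adjusted p of 0.0436 with the same log2 fold change of −0.21, and its adjusted p under the alternatives ran from 0.0436 to 0.424. Without trametinib replicate 3 its log2 fold change was −0.12.

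Ebi3 encodes the partner of the Il27 chain (ENSMUSG00000003206, chromosome 17, 55952640 to 55957022). It had 62.6, 61.8 and 66.3 CPM in the trametinib libraries, against 87.8, 78.1 and 84.3 CPM in the vehicle libraries. The groups were apart and both were tight. Ebi3 fell to 0.762 of the vehicle level (log2 fold change −0.39, SE 0.07, adjusted p 0.00297 by edgeR). Its exons share 270 bases with Gm16712, an antisense gene on the opposite strand, which had 1.26 CPM with trametinib and 4.88 CPM with vehicle. The exons of Il27 share 103 bases with the opposite-strand gene Apobr, which averaged 60.9 CPM with trametinib and 92.9 CPM with vehicle. The strand setting of the counting is not given in the sources used here, so reads of these partners cannot be told apart there.

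Il15 encodes IL-15 (ENSMUSG00000031712, chromosome 8, 82331632 to 82403222). It had 228, 253 and 185 CPM in the trametinib libraries, against 116, 117 and 125 CPM in the vehicle libraries. Every trametinib library lay above every vehicle library, and the trametinib values varied more, by 15.3% of their mean against 4.18% with vehicle. Il15 rose 1.86-fold (log2 fold change 0.89, SE 0.11, 95% interval 0.64 to 1.15, adjusted p 0.000732 by edgeR).

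Il15ra, the chain that presents IL-15 (ENSMUSG00000023206, chromosome 2, 11705290 to 11734317), had 280.3, 295 and 227 CPM in the trametinib libraries, against 163, 153 and 159.8 CPM in the vehicle libraries. It rose 1.69-fold (log2 fold change 0.75, SE 0.10, 95% interval 0.52 to 0.99, adjusted p 0.00108 by edgeR). The ligand and its presenting chain both rose, and in both the order of the trametinib libraries was replicate 2, then 1, then 3.

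Il12rb1, the receptor chain of IL-12 and IL-23 (ENSMUSG00000000791, chromosome 8, 70808449 to 70821424), had 85.6, 76.9 and 58.1 CPM in the trametinib libraries, against 23.6, 22.3 and 27.2 CPM in the vehicle libraries. It rose 3.02-fold, the largest rise of the 7 members tested (log2 fold change 1.59, SE 0.15, 95% interval 1.24 to 1.94, adjusted p 0.000447 by edgeR). The receptor chain was higher and a chain of its ligand, Il12a, lower in the same libraries. Trametinib replicate 3 was the trametinib library nearest to the vehicle mean in 6 of the 7 members, all but Il27.

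**Figure D2:**
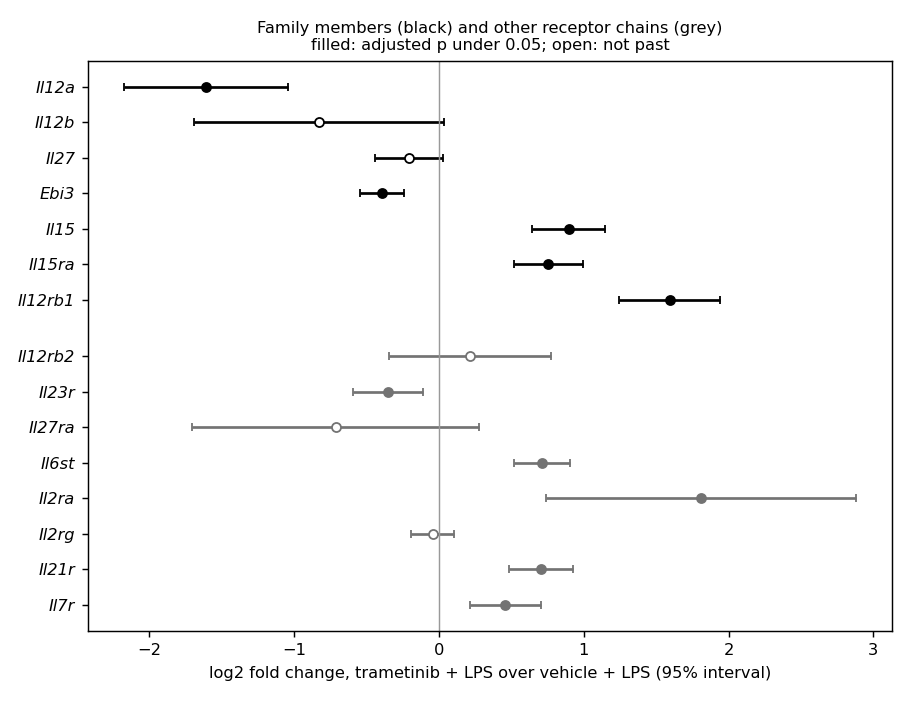
Log2 fold change, trametinib + LPS over vehicle + LPS (horizontal axis), with its 95% interval, for the 7 tested members (black) and 8 other receptor chains (grey). Filled points have an adjusted p under 0.05; Il12rb1 lies at 1.59 and Il12a at −1.61, and the interval of Il12b reaches just past 0.

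Because CPM grow with transcript length, levels of different genes are compared as CPM per kilobase of exon. With trametinib the order was Il15 (98.1 ± 15.0 CPM per kilobase, SD, n = 3), Il15ra (60.2 ± 8.06), Ebi3 (55.1 ± 2.06), Il27 (37.3 ± 4.32), Il12b (28.6 ± 4.06), Il12rb1 (17.9 ± 3.42) and Il12a (2.15 ± 0.581), and of the neighbours only Il15ra and Ebi3 overlapped. With vehicle the order was Ebi3 (72.3 ± 4.26 CPM per kilobase), Il15 (52.8 ± 2.21), Il12b (50.8 ± 23.0), Il27 (43.0 ± 3.69), Il15ra (35.7 ± 1.07), Il12a (6.54 ± 1.71) and Il12rb1 (5.93 ± 0.628). There, Il12b, whose 3 libraries ran from 33.8 to 77.0 CPM per kilobase, overlapped with Ebi3, Il15, Il27 and Il15ra, so its place among them is not settled, and Il12a overlapped with Il12rb1. The place of Il15ra depends on the length used. Per kilobase of the longest transcript, Il15ra and Il15 averaged 116 and 116 CPM with trametinib and 68.5 and 62.5 CPM with vehicle. By that length Il12rb1 also came closer to its neighbours. It averaged 25.6 CPM beside 28.9 CPM for Il12b with trametinib, and 8.48 CPM beside 8.54 CPM for Il12a with vehicle. Il12a was therefore the scarcer of the chains that make IL-12 in both groups, and Ebi3 exceeded Il27 in both.

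Whether the chains of a pair changed by different amounts was tested on the ratio of their counts per kilobase within each library, by an exact permutation test, two-sided, over 5 pairs. With 3 libraries against 3 the smallest p it can give is 0.1, so no ratio could pass. Il12b exceeded Il12a 11.9-fold, 18.3-fold and 11.4-fold in the trametinib libraries, against 6.88-fold, 6.57-fold and 9.11-fold in the vehicle libraries. The groups did not overlap, and the log2 ratio was 0.86 higher with trametinib (SE 0.26, exact p 0.1, adjusted p 0.167). Ebi3 over Il12a, the pair of IL-35, moved alike: 26.9, 32.6 and 20.6 in the trametinib libraries, against 12.6, 13.1 and 8.64 in the vehicle libraries (log2 difference 1.22, SE 0.27, exact p 0.1, adjusted p 0.167). Both ratios to Il12a were thus higher in every trametinib library than in any vehicle library. The fall of Il12a enters both, so they are not separate results.

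For IL-27 the ratio of Ebi3 to Il27 was 1.31, 1.43 and 1.75 in the trametinib libraries, against 1.61, 1.68 and 1.76 in the vehicle libraries. These overlapped, with a log2 difference of −0.18 (SE 0.13, exact p 0.3, adjusted p 0.375). Without trametinib replicate 1 this difference was −0.0898, and without trametinib replicate 3 it was −0.30. Il15ra over Il15 was 0.626, 0.594 and 0.623 in the trametinib libraries, against 0.711, 0.669 and 0.650 in the vehicle libraries. This ratio was lower in every trametinib library but by a small amount, −0.14 in log2 units (SE 0.05, exact p 0.1, adjusted p 0.167). Il12b over Ebi3 overlapped between the groups (log2 difference −0.36, SE 0.36, exact p 0.6, adjusted p 0.6), and its difference was −0.0181 when vehicle replicate 3 was left out and −0.56 when vehicle replicate 2 was. The level of each ratio depends on the length assigned to a gene, and the difference between groups does not.

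**Figure D3:**
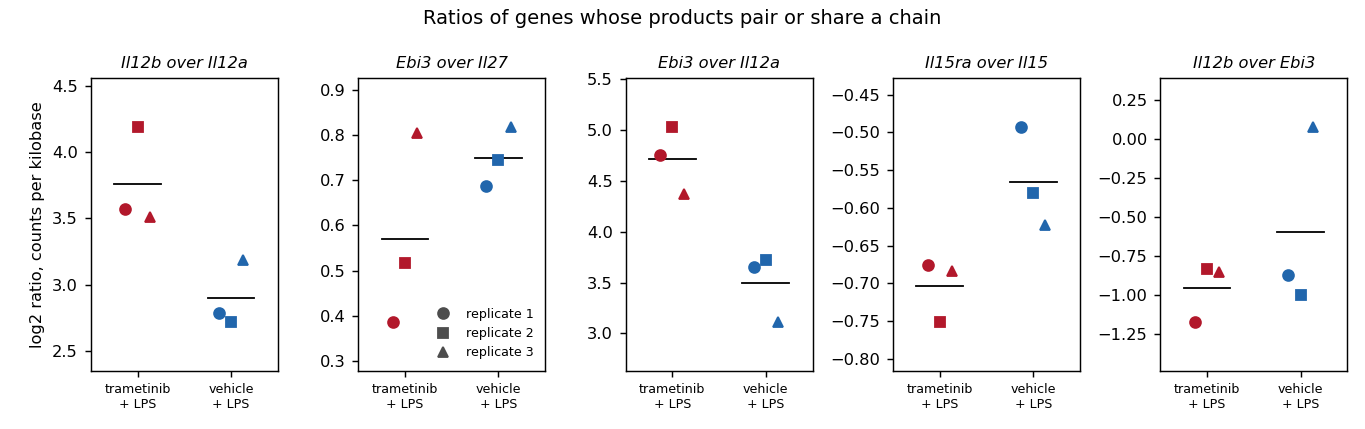
Log2 ratio of counts per kilobase (vertical axis, a separate scale in each panel) for 5 pairs of genes in the 3 trametinib + LPS and 3 vehicle + LPS libraries. Points are libraries and lines are means. Il12b over Il12a and Ebi3 over Il12a are higher in every trametinib library.

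Among the other receptor chains of these cytokines and of the related common gamma chain cytokines, 8 of 10 were tested. Of these, 4 rose, 1 fell and 3 did not pass, where 15.8% of all genes tested rose and 18.4% fell. Their median log2 fold change was 0.34. Il6st, the signalling chain shared by IL-6 and IL-27, averaged 118 ± 2.22 CPM with trametinib and 72.0 ± 8.24 CPM with vehicle (log2 fold change 0.71, SE 0.08, adjusted p 0.000574 by edgeR). Il21r, the IL-21 receptor, rose by 0.71 on the same scale (SE 0.10, adjusted p 0.00110), and Il7r, the IL-7 receptor, by 0.46 (SE 0.11, adjusted p 0.0114). Il2ra, the high-affinity IL-2 receptor chain, averaged 3.17 ± 0.756 CPM with trametinib and 0.894 ± 0.697 CPM with vehicle (log2 fold change 1.81, SE 0.46, adjusted p 0.0193). Il23r, which pairs with the Il12rb1 product to bind IL-23, was the chain that fell, at 5.89 ± 0.0376 CPM with trametinib and 7.52 ± 0.190 CPM with vehicle (log2 fold change −0.35, SE 0.11, adjusted p 0.0333).

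The partner chains of Il12rb1 and Il15ra in the IL-12 and IL-15 receptors that could be tested, Il12rb2 and Il2rg, did not pass. Il12rb2, which completes the IL-12 receptor, had 3.31, 2.79 and 5.07 CPM with trametinib and 3.14, 2.68 and 3.78 CPM with vehicle (log2 fold change 0.22, SE 0.25, adjusted p 0.527 by edgeR). Il2rg, the common gamma chain through which IL-15 signals, had 136, 128 and 126 CPM with trametinib and 134, 137 and 130.2 CPM with vehicle (log2 fold change −0.04, SE 0.07, adjusted p 0.635). Il27ra was under 1 CPM in every library and did not pass (adjusted p 0.240). Il2rb, the chain that IL-2 and IL-15 share, had 19 counts in the trametinib libraries together and 9 in the vehicle libraries together and was not tested, nor was Il9r. The call of Il23r ended with DESeq2 (adjusted p 0.148), when no low-count filter was used (0.0731) and when any library but vehicle replicate 3 was left out (0.0639 to 0.118). The call of Il7r was lost without trametinib replicate 1 (0.0575), and that of Il2ra without trametinib replicate 2 or 3 or vehicle replicate 2 (0.0568, 0.0582 and 0.0765). Leaving out vehicle replicate 3 brought Il2ra to a log2 fold change of 2.64.

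Of 19 other signals through which macrophages direct lymphocytes 17 were tested (median log2 fold change 0.15). Among the 17, 7 rose, 5 fell and 5 did not pass, beside 15.8% of all genes tested that rose and 18.4% that fell. Il18, a cytokine that acts with IL-12 on natural killer and T cells, had 53.2, 57.3 and 43.8 CPM in the trametinib libraries, against 31.6, 31.8 and 31.7 CPM in the vehicle libraries (log2 fold change 0.70, SE 0.10, adjusted p 0.00126 by edgeR). It thus rose beside Il15. Tgfb1, which restrains T cells, averaged 129.8 ± 12.1 CPM with trametinib and 273 ± 66.8 CPM with vehicle (log2 fold change −1.07, SE 0.18, adjusted p 0.00426). Of the costimulatory ligands of CD28, Cd86 rose (183 ± 12.1 CPM with trametinib, 137 ± 9.84 CPM with vehicle, adjusted p 0.00578) and Cd80 fell (4.32 ± 0.965 CPM with trametinib, 8.35 ± 0.743 CPM with vehicle, adjusted p 0.00335). Tnf, the inflammatory cytokine with the smallest p of the list, averaged 417 ± 17.4 CPM with trametinib and 1054 ± 144 CPM with vehicle (adjusted p 0.000178), and Il10, which restrains IL-12 production, averaged 4.47 ± 0.430 CPM with trametinib and 9.13 ± 3.36 CPM with vehicle (adjusted p 0.0235). Without trametinib replicate 1 or 2, 3 of the list rose and 3 fell, and without vehicle replicate 2, 3 fell. Il10 no longer passed when vehicle replicate 2 (adjusted p 0.0689) or any trametinib library (0.0535 to 0.0841) was left out.

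Of 13 genes of JAK-STAT signalling, through which these receptors act, 5 rose, 1 fell and 7 did not pass (median log2 fold change 0.14). Over all genes tested, 15.8% rose and 18.4% fell. Tyk2, the kinase bound to the Il12rb1 chain, averaged 459 ± 18.8 CPM with trametinib and 294 ± 42.6 CPM with vehicle (log2 fold change 0.64, SE 0.11, adjusted p 0.00240 by edgeR). Stat3, activated by IL-23 and IL-27, rose by 0.58 in log2 units (adjusted p 0.00166). Stat4, the main signal of IL-12 in lymphocytes, had 1.03 ± 0.272 CPM with trametinib and 0.663 ± 0.334 CPM with vehicle and did not pass (adjusted p 0.263). Among feedback inhibitors, Cish averaged 2.40 ± 0.133 CPM with trametinib and 0.642 ± 0.246 CPM with vehicle (adjusted p 0.00154), and Socs3 averaged 165 ± 46.8 CPM with trametinib and 484 ± 139 CPM with vehicle (adjusted p 0.00962). Without trametinib replicate 1 or 2, 3 of the list rose.

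The 30 transcription factors and cofactors listed as possible regulators of the members were all tested (median log2 fold change 0.15). Of these, 11 rose, 8 fell and 11 did not pass, where 15.8% of all genes tested rose and 18.4% fell. Irf1 and Irf8, activators of the IL-12 genes in mouse macrophages, both rose: Irf1 averaged 840.2 ± 86.1 CPM with trametinib and 591 ± 41.1 CPM with vehicle (log2 fold change 0.51, adjusted p 0.00427 by edgeR), and Irf8 averaged 162 ± 4.80 CPM with trametinib and 108 ± 7.45 CPM with vehicle (log2 fold change 0.59, adjusted p 0.000755). Nfil3, a repressor of Il12b in mouse macrophages, rose by 2.31 in log2 units (SE 0.19, adjusted p 0.000362). Atf3, another repressor of Il12b, averaged 600.0 ± 68.0 CPM with trametinib and 338 ± 15.5 CPM with vehicle (adjusted p 0.000551). Nfkbiz, which helps NF-kappaB activate Il12b and other secondary response genes, averaged 49.7 ± 8.09 CPM with trametinib and 139 ± 15.5 CPM with vehicle (adjusted p 0.000360).

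Maf, which represses IL-12 genes and activates Il10, averaged 67.8 ± 3.26 CPM with trametinib and 201 ± 68.0 CPM with vehicle (log2 fold change −1.56, SE 0.27, adjusted p 0.00694 by edgeR). Bcl3, an IkappaB family cofactor, rose by 0.87 in log2 units (adjusted p 0.000677) and Egr1, an ERK-induced zinc finger factor, fell by 6.23 (adjusted p 0.000645). Rel, the NF-kappaB subunit required for IL-12 genes, had a log2 fold change of 0.17 (SE 0.13, adjusted p 0.344). The adjusted p of Rel was 0.0438 under the replicate block and 0.0428 when vehicle replicate 3 was left out, and lay between 0.0428 and 0.731 across alternatives. Its log2 fold change was 0.0618 when trametinib replicate 3 was left out and 0.29 when vehicle replicate 3 was. Known activators and known repressors of Il12b stood among both the risers and the fallers. Without trametinib replicate 1, 7 of the list rose.

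**Figure D4:**
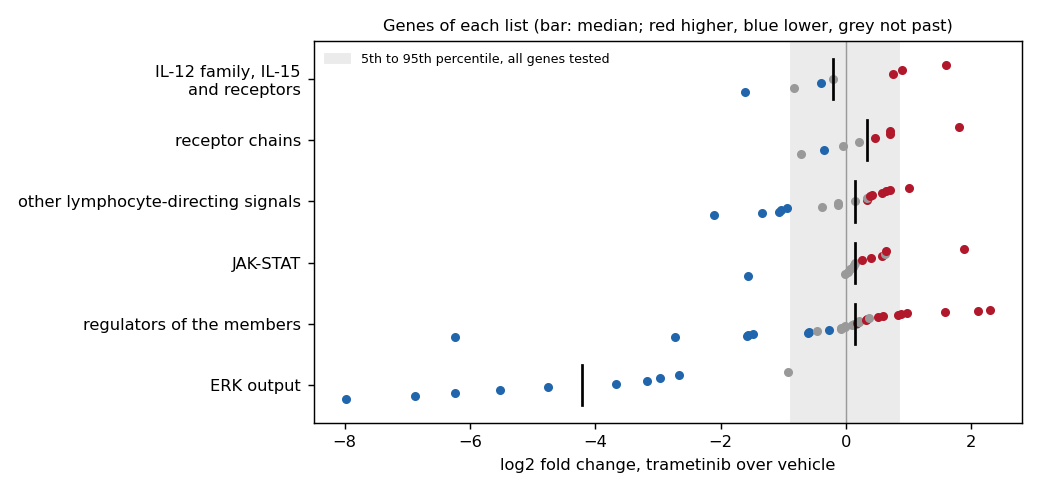
Log2 fold change, trametinib over vehicle (horizontal axis), of each tested gene of the members and of 5 lists of related genes. Red and blue points passed as higher and lower, grey did not pass, bars are medians, and the grey band spans the 5th to 95th percentile of all genes tested, −0.88 to 0.85. The ERK output list lies far to the left, and the members fall on both sides.

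The genes whose level followed each member most closely over the 6 libraries were found by Pearson's r of log2 CPM among 8678 protein-coding genes with a mean of at least 5 CPM. They were Sdf4 (r 0.999), Psmb6 (0.998) and Stxbp3 (0.998) for Il15, Rfc2 (0.999), Tspan13 (0.999) and Tmem9 (0.999) for Il15ra, and 1600014C10Rik (0.9996), Dusp28 (0.998) and Aff1 (0.998) for Il12rb1. For Il12a they were Dyrk2 (0.997), Pfas (0.997) and Rapgef1 (0.996), and for Ebi3 Gramd1b (0.997), Csnk2a2 (0.996) and Dock10 (0.995). Il12b was followed less closely, by Sepsecs (0.985), Eid1 (0.982) and Abracl (0.982), as was Il27, by Zcrb1 (0.979), Sorbs3 (0.977) and Ttc1 (0.974). Over 0.99 there were 82, 78, 68, 17 and 10 genes for Il12rb1, Il15, Il15ra, Il12a and Ebi3, and 0 for Il12b and Il27. These values describe 6 libraries that share 2 treatments.

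IL-12 and IL-15 are also made by dendritic cells, and Il12rb1 is also expressed by natural killer cells and T cells. Markers of these cells were therefore read beside the members. In bulk RNA, fewer cells of a type and less RNA per cell cannot be told apart. The 8 dendritic cell markers summed to 18.7 to 28.9 CPM in trametinib libraries and 6.79 to 12.5 CPM in vehicle libraries. None of the 3 that were tested (Xcr1, Ccr7 and Kit) passed. Ccr7 had 10.8, 10.3 and 22.5 CPM with trametinib and 0.673, 2.12 and 7.08 CPM with vehicle. Kit had 5.32, 6.61 and 4.01 CPM with trametinib and 4.26, 2.96 and 4.05 CPM with vehicle, and was the largest share of the sum in vehicle replicates 1 and 2. Flt3, Zbtb46, Clec9a, Cd209a and Siglech were under 1 CPM in every library. The part of dendritic cells in the changes of the members was not tested.

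The 10 T and natural killer cell markers summed to 2.20 to 2.72 CPM with trametinib and 2.27 to 3.31 CPM with vehicle, nearly all of it Lck. Cd3e, Cd3d, Cd3g, Cd8a, Ncr1, Klrb1c, Nkg7 and Tbx21 had at most 2 counts in any library and Eomes had 0 in all. B cell markers summed to under 1 CPM in every library. Neutrophil markers summed to 490 to 593 CPM with trametinib and 366 to 417 CPM with vehicle, of which Csf3r, also expressed by macrophages, gave 487 to 589 CPM with trametinib and 361 to 410.5 CPM with vehicle, while Ly6g had 1 count in all. Eosinophil and mast cell markers, and fibroblast and mesothelium markers, each summed to at most 3.25 CPM in any library.

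**Figure D5:**
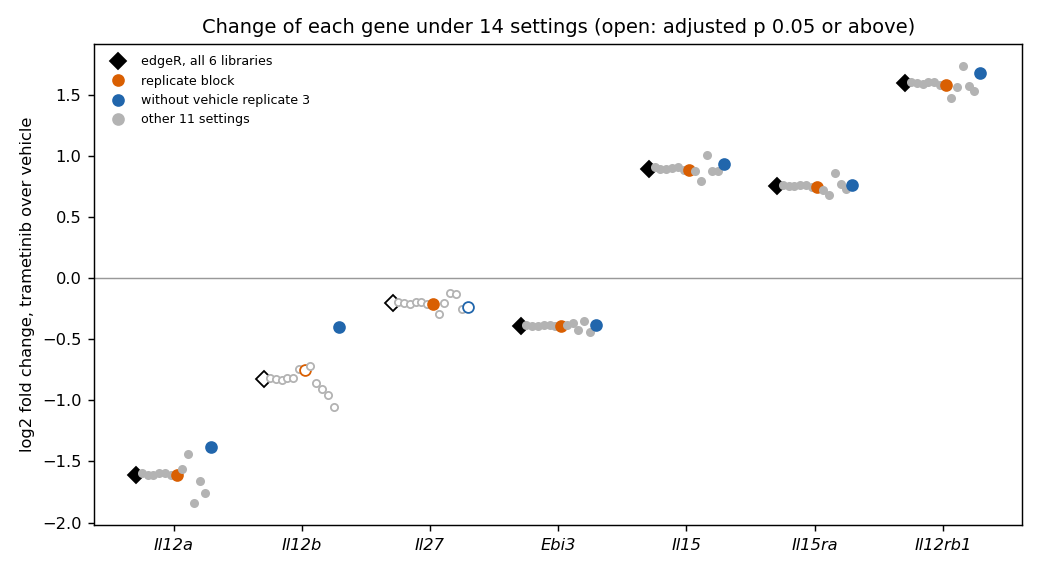
Log2 fold change, trametinib over vehicle (vertical axis), of each tested member under 14 settings of the analysis (one point each). Filled points have an adjusted p under 0.05. The sign held in all 14 for each gene, Il12b moved most, to −0.40 without vehicle replicate 3, and Il27 passed with the replicate block alone.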

How the data were processed

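RNA from 6 cultures of mouse peritoneal macrophages, 3 per group, was sequenced after removal of ribosomal RNA. The authors deposited raw counts per gene, not normalized. Per the submitters' processing notes the tools were featureCounts 1.6.4 and HISAT2 2.1.0, with DESeq2 1.24.0 under R 3.6.0, on mm10. What is not given in the sources used here is the annotation, the strand setting and how multi-mapping reads were counted.

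From 25354 entries, 310 identical repeats were dropped, leaving 25044 genes, of which 25033 were named from GENCODE M21. Groups follow the labels. After filterByExpr and TMM scaling, genes were tested with edgeR 4.0.16 (glmQLFit, robust, group only; R 4.3.3); the procedure was tested on simulated data. SE was taken as the absolute log2 fold change divided by the root of F. Exon length is the union of exons. Ratios with Il23a were not computed because of a count of 0. Likeness used log2 of CPM plus 0.5. Intervals of counts are exact and cover counting error only. Sequences are RefSeq's, GRCm38.p6.

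After subtracting group means, same-numbered libraries correlated over genes at 0.339, 0.393 and 0.285 and the others at −0.0724 to −0.223. Deviations from a mean cancel within a group, so negative values for the others follow from the positive ones and add no evidence. Libraries of the same number were thus more alike, which falls short of showing that they are pairs. The labels do not say what the numbers mark. The main fit was unpaired and the block an alternative. Of the genes tested the main fit called 3869 and the block 4837. Gene calls are from the unpaired fit unless an alternative is named. The chi-square per gene between replicates was 5.98 to 28.1, so none was a copy.

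The members and the gene lists were chosen with earlier results of these data known. Genes named beside the members are all tested receptor chains, up to 5 per other list with the smallest p, 9 genes taken whether changed or not (Irf1, Irf8, Rel, Nfil3, Maf, Nfkbiz, Stat4, Il18, Il10), and the 3 closest followers of each member. A gene that this rule takes is not reported here. Alternatives were DESeq2 size factors in edgeR, TMM without the 10 most abundant and mitochondrial genes, no filter, a filter of 1 CPM in 3 or more libraries, limma-voom (limma 3.58.1), DESeq2 1.42.0, leaving out single libraries in turn, and the replicate block. Python 3.11.15, NumPy 2.4.6, pandas 2.3.3, SciPy 1.17.1 and matplotlib 3.10.9 were used.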

Additional observations from a re-analysis of the deposited data

How the results depend on the processing

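Each of the 7 tested members kept its sign under the 13 alternatives. Il15, Il15ra, Il12rb1, Il12a and Ebi3 passed under all 13. Il12b passed without vehicle replicate 3, and Il27 passed with the replicate block (log2 fold change −0.21); the cause was not tested. Leaving out 1 library at a time gave log2 fold changes of −1.84 to −1.38 for Il12a, −1.05 to −0.40 for Il12b, −0.29 to −0.12 for Il27, −0.44 to −0.35 for Ebi3, 0.80 to 1.01 for Il15, 0.68 to 0.86 for Il15ra and 1.47 to 1.74 for Il12rb1. Members higher numbered 3 each time, and members lower 2 or 3. Among the members and the genes named from the lists of receptor chains, signals, JAK-STAT, regulators and ERK output, the replicate block changed the calls of Il27 and Rel alone. Most genes named from the lists have the smallest p there, and in the full lists the block changed more calls. With it 15 regulators were higher, against 11 in the main fit, and 8 other lymphocyte-directing signals, against 7.

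Leaving out 1 library gave 3 to 4 receptor chains higher and 0 to 1 lower, and 3 to 7 other lymphocyte-directing signals higher and 3 to 4 lower. It gave 3 to 6 JAK-STAT genes higher, 7 to 14 regulators higher, and 6 to 10 genes of ERK output lower. No receptor chain was lower without a filter on low counts or with DESeq2 (0 in each). Il12rb2 turned to −0.0708 without trametinib replicate 3, and lay between that and 0.394 over the libraries left out.

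With the longest transcript in place of the exon union, the level of log2 Il12b over Il12a was 2.53 with vehicle, that of Ebi3 over Il12a 4.33 with trametinib and 3.11 with vehicle, and that of Il15ra over Il15 −0.00689 with trametinib and 0.131 with vehicle, by construction, since Il15ra has 4446 bases of exon union and 2315 in its longest transcript. Differences of the ratios between groups kept their sign. Il23a, with 12 counts in all, is limited by depth.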
